A study of Mus musculus with 4 samples.

Results

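The clustered protocadherins are a family of cell-surface cadherins encoded side by side in the alpha, beta and gamma clusters of mouse chromosome 18. Every gene whose name follows the family's scheme was taken, which gave 57 of the 55228 genes counted: 13 alpha, 22 beta and 22 gamma genes. Their RNA was measured in cells of E17.5 rib cartilage from C57BL/6 mice, in 2 libraries labelled Trim28 knockout (Trim28 KO) and 2 labelled wild type (WT). TRIM28 is a corepressor that KRAB zinc finger proteins recruit to DNA and that helps to set up heterochromatin. The labels do not say how the knockout was made, which cells lost the gene, or whether each library holds a different embryo, so p-values reflect only the spread among these 4 samples, which may be technical. Errors below are SE for fold changes and SD for levels, with n = 2 per genotype throughout.

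Each alpha and gamma gene has its own promoter and its own large variable exon, which encodes the extracellular cadherin repeats, the membrane span and the start of the tail. That exon is spliced to a set of constant exons that all genes of the cluster share. Beta genes have a single coding exon and no constant exons. The family is best known from neurons, where each cell uses a few of the promoters, picked largely at random, and the resulting mix of homophilic proteins lets a neuron tell its own branches from those of others. The C-type genes at the end of the alpha and gamma clusters are used more uniformly, and the promoters depend on CTCF and cohesin loops to distant enhancers and are held silent by DNA methylation and heterochromatin.

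On the plus strand of GRCm38 chromosome 18, the alpha cluster runs from 36930184 to 37187661, the beta cluster from 37264938 to 37524479 and the gamma cluster from 37661793 to 37841873. Gaps of 77.3 kb and 137 kb separate them. A fragment that lies within exons of several genes was not counted, so alpha and gamma counts come mostly from the variable exons. By the annotation, the exon bases that no other gene overlaps made up a median of 46.4% of an alpha gene (7% to 51.4%) and 54.7% of a gamma gene (0% to 68.5%), whereas 19 of the 22 beta genes shared none. Pcdhga10 has no exon base of its own, because an antisense transcript covers its variable exon, and its count of 0 in every library therefore gives no level. The members resemble each other in sequence, and how reads that map to several places were handled by the aligner is not given in the sources used here, so single values are uncertain to that degree.

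The deposited counts totalled 18616896 and 19903917 in the Trim28 KO libraries and 20082123 and 19493435 in the WT libraries. Levels are given as CPM (counts scaled to a common library total) with edgeR's TMM scaling factors, and a count of 3 in a library, the floor used here, is 0.150 to 0.159 CPM on that scale. Trim28 itself stood at 51.0 and 54.5 CPM in Trim28 KO against 225 and 185 CPM in WT. The cartilage label fitted its defining markers: all 12 chondrocyte genes were detected, and their summed level was 98240 and 125900 CPM in Trim28 KO and 134506 and 101130 CPM in WT. Neither pair was 1 library deposited more than once, since the member counts differed beyond sampling noise (chi-square 96.6 with 39 degrees of freedom in Trim28 KO, 97.95 with 41 in WT).

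All 57 members together took 2919 and 3557 counts in Trim28 KO and 2245 and 2212 in WT. Of these members, 41 had enough counts to be tested, 37 of them above the filter in all 4 libraries, and 16 did not: 12 alpha genes, Pcdhb1, Pcdhb2, Pcdhb12 and Pcdhga10. Across the table, 17.4% of the 16639 genes tested were called at an adjusted p under 0.05 by edgeR's quasi-likelihood test, 8.64% as higher and 8.77% as lower in Trim28 KO. Among the 41 members, 10 rose, 4 fell and 27 did not pass. The rises were Pcdhac2, Pcdhb22 and 8 gamma genes, and the falls were Pcdhb9, Pcdhb10, Pcdhb11 and Pcdhgc3. The median log2 fold change of Trim28 KO over WT was -0.14 for the 41 members and -0.02 for all genes tested. In bulk RNA, a smaller number of cells that use a gene and less RNA per cell cannot be told apart, and the same holds for a rise.

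**Figure D1:**
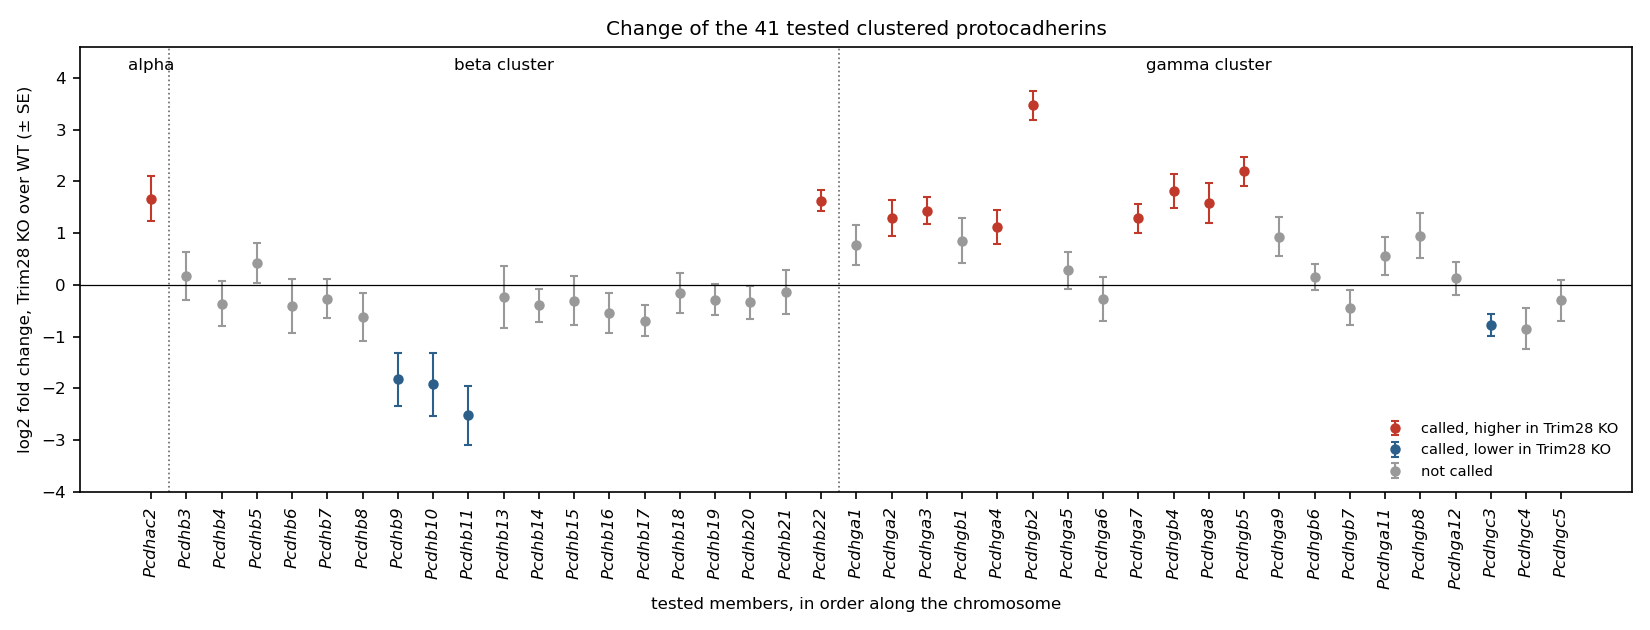
Log2 fold change (Trim28 KO over WT, bars: SE, 2 libraries per genotype) of the 41 tested members, placed in their order along the chromosome with dotted lines between clusters. Red points were called higher, blue points lower and grey points were not called. The rises fill much of the left side of the gamma cluster, and the 3 C-type gamma genes at the right end lie below 0. Pcdhb9 to Pcdhb11 lie together below 0, but they passed the filter on low counts only through the WT libraries.

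The alpha cluster was nearly silent in both genotypes. Its 11 genes other than the C-type pair had 3 and 12 counts in all in the Trim28 KO libraries and 1 and 8 in the WT libraries, with no more than 5 counts for any gene in any library. The name Pcdha11 covers 2 annotated loci, whose counts were summed. Pcdha4 and Pcdha12 had none anywhere, and Pcdha4 has only 404 exon bases of its own. Such counts hold no difference that could be measured at this depth. Of the C-type pair, Pcdhac1 had 1 count in each Trim28 KO library and 0 in WT.

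Pcdhac2, the last alpha promoter and a gene that serotonergic neurons need to space their axons, was the exception. It had 34 and 51 counts in Trim28 KO, or 1.75 and 2.56 CPM, against 13 counts in each WT library, or 0.689 and 0.656 CPM. Both Trim28 KO libraries lay above both WT libraries. Its rise was 3.18-fold (log2 fold change of 1.67 ± 0.44 SE, edgeR quasi-likelihood adjusted p = 0.00999). DESeq2 did not call it (adjusted p = 0.0654), nor was it called without Trim28 KO 2 (adjusted p = 0.154).

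In the beta cluster, 1 of 19 tested genes rose, 3 fell and 15 did not pass, and the median log2 fold change was -0.33. Called genes were 21.1% of those tested, close to the 17.4% of all genes tested. The 1 rise was in Pcdhb22, the last gene of the cluster and the one nearest to gamma. Pcdhb22 stood at 28.4 and 28.5 CPM in Trim28 KO against 8.75 and 9.68 CPM in WT. Its level was 3.08-fold higher in Trim28 KO (log2 fold change of 1.62 ± 0.20 SE, edgeR quasi-likelihood adjusted p = 2.88e-06). The 2 libraries of each genotype lay close together, and it was called in every alternative fit run here, among them those that left out 1 library. Among the first 21 beta genes, 2 of the 18 tested had a log2 fold change above 0, where 48.1% of all genes tested had one. The other 16 lay below 0, but 15 of these 18 were not called. Of the 16, Pcdhb9, Pcdhb10 and Pcdhb11 passed the filter on low counts only through the WT libraries and so had to lie below 0. Those of Pcdhb7, Pcdhb13, Pcdhb15 and Pcdhb21 took both signs when 1 library was left out. Pcdhb2, the first beta gene with any counts, was too low to test, with 9 and 24 counts in Trim28 KO and 6 and 4 in WT, as were Pcdhb12, with 2 counts in each Trim28 KO library against 2 and 7 in WT, and Pcdhb1, with none.

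The 3 beta genes that fell are direct neighbours and span 25 kb. Pcdhb9 stood at 0.463 and 0.301 CPM in Trim28 KO against 1.38 and 1.36 CPM in WT (log2 fold change of -1.83 ± 0.51 SE, edgeR quasi-likelihood adjusted p = 0.0147). Pcdhb10 was at 0.154 and 0.301 CPM in Trim28 KO and at 1.06 and 0.706 CPM in WT (-1.92 ± 0.61, adjusted p = 0.0312). For Pcdhb11 the levels were 0.309 and 0.150 CPM in Trim28 KO and 1.17 and 1.51 CPM in WT (-2.52 ± 0.57, adjusted p = 0.00296, all by edgeR's quasi-likelihood test). None of the 3 had more than 9 counts in a Trim28 KO library, and they passed the filter on low counts only through the WT libraries, so genes that passed in this way had to differ. With no filter all 3 were called as well. DESeq2 called Pcdhb11 but neither Pcdhb9 (adjusted p = 0.144) nor Pcdhb10 (adjusted p = 0.253). Leaving out any 1 library ended the calls of Pcdhb9 and Pcdhb10, and leaving out Trim28 KO 2 ended that of Pcdhb11 (adjusted p = 0.0850).

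The other beta genes lay closer to WT. Pcdhb17, in WT the beta gene next to Pcdhb22 in level per length, was at 3.03 and 3.66 CPM in Trim28 KO against 4.03 and 6.76 CPM in WT, and it was not called (log2 fold change of -0.69 ± 0.31 SE, edgeR quasi-likelihood adjusted p = 0.127), though it was without WT 1 (adjusted p = 0.0384). Pcdhb14, Pcdhb19 and Pcdhb20 had log2 fold changes of -0.40 ± 0.32, -0.29 ± 0.30 and -0.33 ± 0.32, and Pcdhb5 had the highest value among the uncalled beta genes, 0.42 ± 0.39. None of these was called.

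The gamma cluster had most of the rises. Of its 21 tested genes, 8 rose, 1 fell and 12 did not pass, with a median log2 fold change of 0.86. Called genes were 42.9% of those tested, against 17.4% of all genes tested. The A and B genes, 2 subfamilies that alternate along the cluster, held all 8 rises: 5 of 11 tested A genes and 3 of 7 tested B genes. None of these 18 fell, and 16 had a log2 fold change above 0. Among all 21 tested gamma genes, C-type genes included, the libraries of the genotypes did not overlap in 16, against 58.0% of all genes tested. These 16 were the 8 rises, the 1 fall, 4 uncalled genes higher in Trim28 KO and 3 uncalled genes lower. Without Trim28 KO 2, 5 of the 8 were called, and all 5 were among the 8.

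Pcdhgb2 changed most of all members. It had 261 and 285 counts in Trim28 KO, or 13.4 and 14.3 CPM, against 20 and 28 counts in WT, or 1.06 and 1.41 CPM. The 4 libraries fell into clearly separate pairs. It rose 11.1-fold (log2 fold change of 3.48 ± 0.28 SE, edgeR quasi-likelihood adjusted p = 4.08e-09), and its log2 fold change lay between 3.31 and 3.72 when any 1 library was left out. Its variable exon starts at 37689828.

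Pcdhgb5 and Pcdhgb4, the other B genes that rose, followed. Pcdhgb5 was at 8.07 and 11.9 CPM in Trim28 KO against 2.44 and 1.92 CPM in WT, a log2 fold change of 2.19 ± 0.29 (SE, edgeR quasi-likelihood adjusted p = 6.49e-06). For Pcdhgb4 the values were 6.94 and 5.71 CPM in Trim28 KO and 2.23 and 1.36 CPM in WT, or 1.82 ± 0.32 (adjusted p = 2.64e-04). Both were called in every alternative fit run here. The remaining B genes were not called: Pcdhgb1 (0.86 ± 0.44), Pcdhgb6 (0.15 ± 0.25), Pcdhgb7 (-0.44 ± 0.34) and Pcdhgb8 (0.95 ± 0.43), which the annotation lists as a polymorphic pseudogene.

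Among the A genes, Pcdhga3 had the highest level per length in Trim28 KO. Its level was 8.90 and 10.6 CPM in Trim28 KO against 4.03 and 3.18 CPM in WT (log2 fold change of 1.43 ± 0.26 SE, edgeR quasi-likelihood adjusted p = 3.09e-04). Pcdhga7 stood at 6.33 and 7.62 CPM in Trim28 KO and 2.86 and 2.82 CPM in WT (1.29 ± 0.28, adjusted p = 0.00191). These 2 kept their call in every alternative fit. Pcdhga8 was at 2.42 and 4.41 CPM in Trim28 KO and 1.01 and 1.26 CPM in WT (1.58 ± 0.39, adjusted p = 0.00636). Its Trim28 KO libraries were the most unequal of the 8 risen genes, and without Trim28 KO 2 its call was lost (adjusted p = 0.190).

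Pcdhga2 was measured at 4.22 and 4.46 CPM in Trim28 KO and 2.23 and 1.31 CPM in WT (log2 fold change of 1.29 ± 0.34 SE, edgeR quasi-likelihood adjusted p = 0.00982), and Pcdhga4 at 4.47 and 3.71 CPM in Trim28 KO and 1.96 and 1.82 CPM in WT (1.11 ± 0.33, adjusted p = 0.0202). Both calls were lost without Trim28 KO 1 (adjusted p = 0.0633 for Pcdhga2 and 0.172 for Pcdhga4), without Trim28 KO 2 (0.0764 and 0.0547) or without WT 2 (0.0999 and 0.0732), and DESeq2 did not call Pcdhga4 (0.0798). The A genes that did not pass included Pcdhga5 (0.28 ± 0.35) and Pcdhga6 (-0.27 ± 0.43), which lie between risen neighbours, and Pcdhga12 at the end of the A and B series (0.13 ± 0.32).

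**Figure D2:**
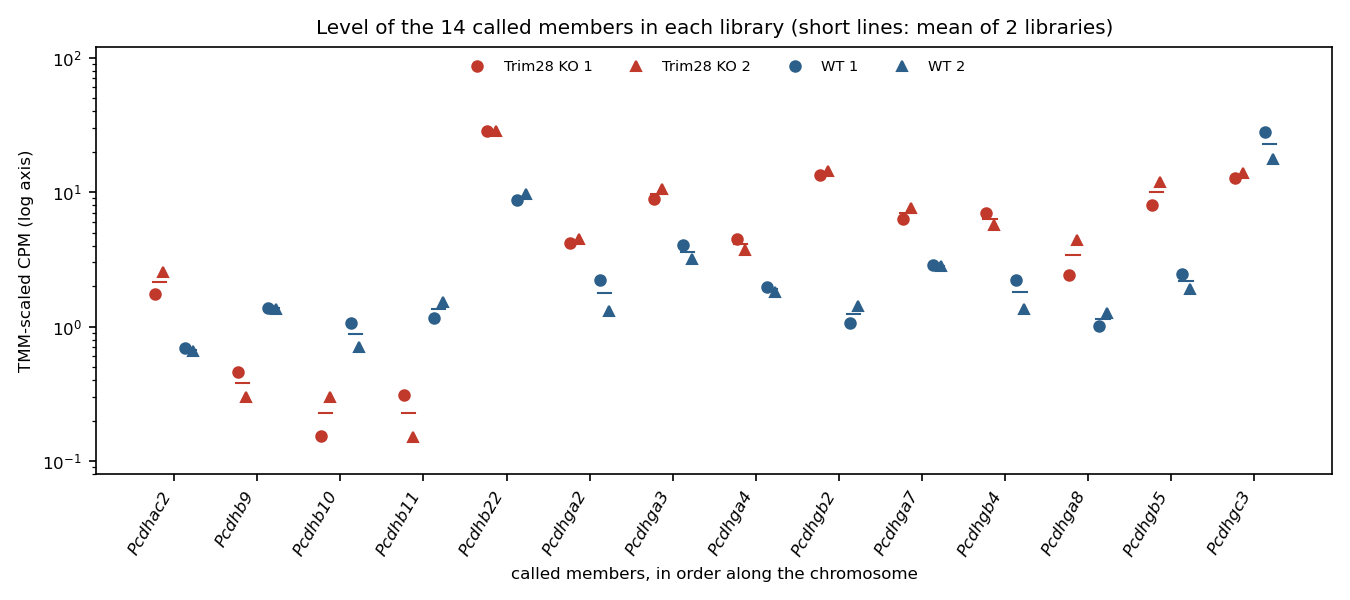
TMM-scaled CPM (log axis) of the 14 called members in each library, in chromosome order, with Trim28 KO in red at the left of each pair and WT in blue at the right. Circles are replicate 1, triangles replicate 2 and short lines the mean of 2 libraries. Pcdhgb2 shows the widest gap, at 13.4 and 14.3 CPM in Trim28 KO and 1.06 and 1.41 CPM in WT. The genotypes do not overlap for any of the 14, but being called favours this. They do not overlap for 58.0% of all genes tested.

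The 3 C-type gamma genes did not share the rise. Pcdhgc3, whose protein binds the Wnt pathway scaffold Axin1, had the highest level per length of the gamma genes in WT. It stood at 12.8 and 13.8 CPM in Trim28 KO against 27.9 and 17.7 CPM in WT, and the genotypes did not overlap. Its level was 1.71-fold lower (log2 fold change of -0.78 ± 0.22 SE, edgeR quasi-likelihood adjusted p = 0.0163). WT 1 carried much of that difference: without it the log2 fold change was -0.39 and the call was lost (adjusted p = 0.317). The call was also lost without Trim28 KO 1 (adjusted p = 0.181) or Trim28 KO 2 (0.105), and DESeq2 did not make it (0.0555). Pcdhgc4, the isoform that interneurons need for survival, was at 1.08 and 1.35 CPM in Trim28 KO and 1.96 and 2.42 CPM in WT and was not called (-0.85 ± 0.40, adjusted p = 0.157). Pcdhgc5 was not called either (-0.30 ± 0.39).

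The make-up of the clusters differed between genotypes. The C-type genes gave 16.2% and 14.8% of gamma counts in Trim28 KO against 42.7% and 36.4% in WT (95% Wilson intervals of 14.6% to 17.9%, 13.4% to 16.3%, 40.1% to 45.3% and 33.7% to 39.1%, counting error only). Gamma B genes made up 41.9% and 41.3% in Trim28 KO against 24.0% and 26.5% in WT. Pcdhgb2 alone made up 14% and 12.6% of gamma counts in Trim28 KO and 1.42% and 2.34% in WT. With 2 libraries per genotype a permutation test could not pass the threshold, so these shares are a description.

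In beta, Pcdhb22 alone supplied 54.0% and 46.2% of the counts in Trim28 KO and 20.1% and 19.4% in WT. The effective number of members, the inverse of the summed squared shares, was 3.24 and 4.22 for beta in Trim28 KO against 11.2 and 11 in WT. For gamma it was 13 and 13.4 in Trim28 KO against 6.03 and 8.37 in WT. Within the gamma A and B genes alone the order was the other way, at 11.98 and 12.19 in Trim28 KO against 13.16 and 12.95 in WT, so the wider spread of the gamma counts in Trim28 KO went with the smaller C-type share. In each of these 3 measures both Trim28 KO libraries lay on one side of both WT libraries.

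**Figure D3:**
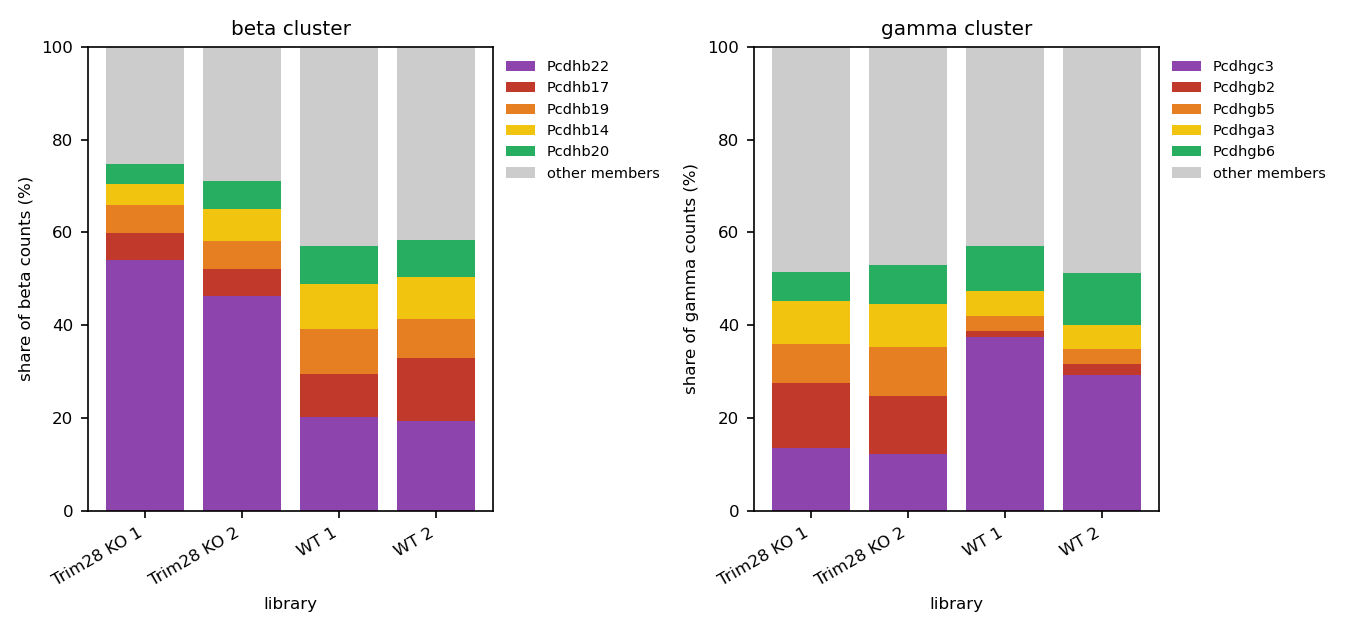
Share of the beta counts (left) and gamma counts (right) that came from single members in each library, with the Trim28 KO libraries at the left of each panel. The 5 members shown in colour per cluster were picked for their size after the values were seen, and all others are grey. Pcdhb22 fills 54.0% and 46.2% of the beta bar in Trim28 KO and 20.1% and 19.4% in WT, and Pcdhgc3 fills 13.4% and 12.2% of the gamma bar in Trim28 KO and 37.4% and 29.3% in WT.

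Summed over a cluster, the difference depended on a single gene in beta. The beta sum was 52.6 and 61.7 CPM in Trim28 KO against 43.5 and 50.0 CPM in WT (ratio of means of 1.22), but without Pcdhb22 it was 24.2 and 33.2 CPM in Trim28 KO against 34.7 and 40.4 CPM in WT (0.764). The gamma sum was 95.6 and 113 CPM in Trim28 KO against 74.8 and 60.5 CPM in WT (1.54). Gamma A and B genes alone summed to 80.1 and 96.6 CPM in Trim28 KO and 42.9 and 38.5 CPM in WT (2.17), and the C-type gamma genes to 15.5 and 16.7 CPM in Trim28 KO and 31.9 and 22 CPM in WT (0.598). The alpha sum was 1.95 and 3.21 CPM in Trim28 KO and 0.742 and 1.06 CPM in WT. Pcdhac2 supplied 89.5% and 79.7% of the alpha counts in Trim28 KO (34 of 38 and 51 of 64) and 92.9% and 61.9% in WT (13 of 14 and 13 of 21).

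Levels of different genes were compared per kb of exon that no other gene overlaps. On this scale Pcdhgc3 was the highest member in both genotypes, with 7.31 ± 0.40 CPM per kb in Trim28 KO and 12.5 ± 4.0 CPM per kb in WT (SD, n = 2). Pcdhgb2 ranked 2nd in Trim28 KO (5.01 ± 0.22) and 27th in WT (0.448 ± 0.090). Pcdhb22 ranked 3rd in Trim28 KO (4.62 ± 0.015) and 5th in WT (1.5 ± 0.11). In WT the second place was held by Pcdhgb6, at 2.72 ± 0.096 CPM per kb, which stood at 3.01 ± 0.91 CPM per kb in Trim28 KO. This difference was smaller than the SD of the Trim28 KO libraries but larger than that of the WT libraries. The median gamma member stood at 1.64 CPM per kb in Trim28 KO and 0.688 in WT, and the median beta member at 0.289 in Trim28 KO and 0.392 in WT. Per kb of deposited exon length, which includes the shared exons, the median gamma member was at 0.633 in Trim28 KO and 0.390 in WT and the median beta member at 0.287 in Trim28 KO and 0.392 in WT, so that the gamma median no longer lay above the beta median in WT. On that scale Pcdhb22 ranked 1st in Trim28 KO (4.30 CPM per kb), ahead of Pcdhgb2 (2.84) and Pcdhgc3 (2.42), and Pcdhgc3 remained 1st in WT (4.151).

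**Figure D4:**
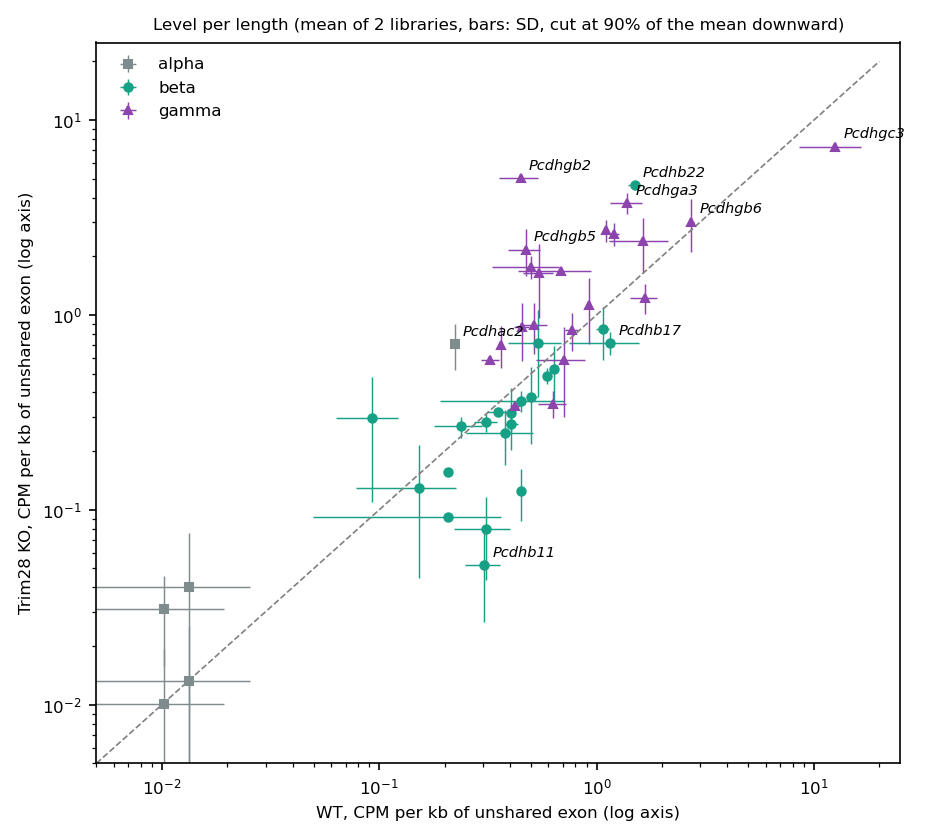
Level per kb of unshared exon in Trim28 KO (vertical, log axis) against WT (horizontal, log axis) for the 47 members with a level above 0 in both genotypes. Points are means of 2 libraries, bars are SD, and the dashed line marks equal levels. Pcdhgb2 lies farthest above the line, at 5.01 CPM per kb in Trim28 KO and 0.448 in WT, and the alpha genes other than Pcdhac2 sit at the lower left, where a few counts decide the value.

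Read along the chromosome, many of the calls lay next to each other in stretches. These stretches were delimited after the values were seen and are a description only. Spearman's rho of log2 fold change against position was 0.154 for the 19 tested beta genes. For the 18 tested gamma A and B genes it was -0.327. Both are given as a description without a p-value. From Pcdhb2 to Pcdhb8 no tested gene was called, and from Pcdhb9 to Pcdhb11 all 3 fell. Those 3 passed the filter on low counts only through the WT libraries, so they had to differ in that direction. DESeq2 called only Pcdhb11 of them. From Pcdhb12 to Pcdhb21 none of 9 tested genes was called. Pcdhb22 and the first 12 gamma genes, up to Pcdhgb5, included 9 rises among 13 tested genes, with a median log2 fold change of 1.29. In the gamma cluster those 12 starts span 69.2 kb. From Pcdhga9 to Pcdhga12 none of 6 tested genes was called, although the log2 fold changes ran from -0.44 to 0.95 and Pcdhga9 had 2.31 and 3.71 CPM in Trim28 KO against 1.49 and 1.66 CPM in WT (0.93 ± 0.37, adjusted p = 0.0883).

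Of 66 annotated genes of the region that are no members (between the clusters' ends or within 500 kb of them), 32 were tested, 4 rose and 1 fell. These 5 were 15.6% of those tested, close to the 17.4% of all genes. Their median log2 fold change was 0.06. Before the alpha cluster 1 of 16 tested genes rose, Cd14 (1.07 ± 0.30), a macrophage marker, whose call was lost without Trim28 KO 1 (adjusted p = 0.325). Taf7, which lies between beta and gamma, was at 56.8 and 35.2 CPM in Trim28 KO and 33.8 and 31.3 CPM in WT and was not called (0.50 ± 0.21, adjusted p = 0.113), though it was without Trim28 KO 2 (adjusted p = 0.0312). Cd14 and Taf7 were named after their values were seen.

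Among the noncoding neighbours, 3222401L13Rik, a lincRNA on the same strand that ends 51 bases before Pcdhga1, rose to 2.16 and 3.16 CPM in Trim28 KO, against 0.742 and 1.21 CPM in WT (log2 fold change of 1.44 ± 0.42 SE, edgeR quasi-likelihood adjusted p = 0.0185). DESeq2 did not call it (adjusted p = 0.0841), nor was it called without Trim28 KO 2 (0.204) or WT 1 (0.108). BC037039, antisense to the start of Pcdhgc3, fell to 0.206 and 0.150 CPM in Trim28 KO, against 0.796 and 0.807 CPM in WT (-2.13 ± 0.63, adjusted p = 0.0207). It had 4 and 3 counts in Trim28 KO and passed the filter on low counts only through the WT libraries, so it had to differ. DESeq2 did not call it (adjusted p = 0.224), and leaving out any 1 library ended the call. Strand was not used in counting, so reads of BC037039 and of Pcdhgc3 cannot be told apart where they overlap, and that stretch was left out of both counts. Farther off, Gnpda1, a glucosamine-6-phosphate deaminase gene on the minus strand, rose by 1.25 ± 0.20 on the log2 scale. Its nearer end lies 486 kb after the gamma cluster. Gnpda1 was called in every alternative fit run here. Fchsd1 rose by 0.82 ± 0.22, a call that was lost without Trim28 KO 1, Trim28 KO 2 or WT 2 (adjusted p of 0.0611, 0.0829 and 0.0757).

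Most genes listed as silencers of the clusters or as factors that loop their promoters did not pass the test. The same held over all genes tested, of which 17.4% were called. Of 21 silencers, Trim28 fell and no other was called, and the median log2 fold change was -0.12. Those next by p-value, Lrif1, a partner of SMCHD1 (-0.64 ± 0.24, adjusted p = 0.0667), Atf7ip2 (1.77 ± 0.67, adjusted p = 0.0761) and the HP1 gene Cbx3 (-0.48 ± 0.19, adjusted p = 0.0906), were not called. Atf7ip2 was called as higher without WT 2 (adjusted p = 0.00987) and when low genes were kept in (0.0467). Smchd1, whose loss in mice raises clustered protocadherins, was at 50.1 ± 3.1 CPM in Trim28 KO and 53.9 ± 4.9 CPM in WT (SD, n = 2), and Ctcf at 46.0 ± 7.3 and 43.0 ± 2.3 CPM in the same order. Both were named after their values were seen, and neither was called. The loop factor list also held Rest and Ezh2, which are not loop factors. Of its 14 tested genes, Pds5b, a cohesin regulator, fell to 29.0 ± 1.4 CPM in Trim28 KO, against 59.8 ± 10.3 CPM in WT (-1.04 ± 0.19, edgeR quasi-likelihood adjusted p = 4.03e-04). The cohesin genes Stag2 (-0.55 ± 0.20, adjusted p = 0.0543), Stag1 (-0.40 ± 0.19) and Nipbl (-0.45 ± 0.19) were not called. Stag2 was called as lower with the stricter filter (adjusted p = 0.0402), by DESeq2 (0.0497) and with the replicate block (0.0464), and Nipbl without WT 1 (0.0381).

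Proteins that bind or process clustered protocadherins include FAK-family kinases, the WAVE complex, the sheddase ADAM10 and the gamma-secretase. Of 26 such genes, none rose and 2 fell, with a median log2 fold change of 0.02. Over all genes tested, 17.4% were called. The falls were in Ret, a receptor kinase that forms a complex with these proteins, at 1.88 ± 0.54 CPM in Trim28 KO and 7.52 ± 0.35 CPM in WT (-2.00 ± 0.30, adjusted p = 4.13e-05), and in Marcks, a membrane-bound kinase substrate (-1.01 ± 0.25, adjusted p = 0.00788). Ret was called in every alternative fit run here, whereas the call of Marcks was lost without Trim28 KO 1 (adjusted p = 0.150), Trim28 KO 2 (0.101) or WT 1 (0.173). Rac1 (0.49 ± 0.20) and Ncstn (0.45 ± 0.19) were not called, though DESeq2 called Rac1 as higher (adjusted p = 0.0300).

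Protocadherins and cadherins outside the clusters moved both ways. Of 18 tested protocadherin, Fat, Dachsous and Celsr genes and their relatives, 4 rose and 4 fell. Over all genes tested, 8.64% rose and 8.77% fell. Pcdh10 (-1.63 ± 0.33), Pcdh20 (-1.74 ± 0.38) and the planar polarity gene Celsr1 (-1.87 ± 0.39) fell, and Celsr2 (1.04 ± 0.24) rose. Without Trim28 KO 2 none of the 4 rises was called, and without Trim28 KO 1 or WT 1 there were 2. Of the 4 falls, that of Pcdh10 alone was called without Trim28 KO 1, where the adjusted p was 0.0527 for Celsr1 and 0.0544 for Pcdh20. DESeq2 called 2 rises and 4 falls. Of 14 tested classical and type II cadherins, 4 rose, led by Cdh19 (3.10 ± 0.26) and Cdh6 (2.47 ± 0.28), with Cdh4 (1.18 ± 0.25) among them, and 2 fell, among them N-cadherin, Cdh2, at 8.22 ± 3.48 CPM in Trim28 KO and 30.8 ± 3.9 CPM in WT (-1.90 ± 0.25). Each of these named genes had an adjusted p of 0.00371 or less.

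Several marker lists of other cells differed between genotypes in the same libraries, whereas the summed endothelial and muscle genes overlapped. For the calls in these lists, the share called over all genes tested was 17.4%. The 13 neuron genes, cells known for these protocadherins, summed to 17.48 and 19.2 CPM in Trim28 KO against 37.4 and 37.2 CPM in WT. Of the 7 tested, 2 fell and 1 rose, and Snap25 was at 0 in every library. The 10 Schwann cell and glia genes summed to 434 and 334 CPM in Trim28 KO against 236 and 232 CPM in WT, most of it S100b, which chondrocytes also express, with 2 rises and 4 falls. Endothelial genes summed to 504 and 563 CPM in Trim28 KO and 654 and 557 CPM in WT, with 1 fall among 10. Muscle genes summed to 1206 and 462 CPM in Trim28 KO and 623 and 812 CPM in WT, with 1 rise and 1 fall among 9 tested.

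Macrophage genes summed to 438 and 262 CPM in Trim28 KO against 130 and 127 CPM in WT, with 7 rises among 10. Osteoclast genes summed to 227 and 225 CPM in Trim28 KO against 1019 and 846 CPM in WT, and all 7 tested fell. Red blood cell genes summed to 75.5 and 81.7 CPM in Trim28 KO against 254 and 349 CPM in WT, and all 6 tested fell. Fibroblast and perichondrium genes summed to 24229 and 31136 CPM in Trim28 KO against 70662 and 49302 CPM in WT, with 5 falls among 10. The part of these differences in the protocadherin values was not tested.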

How the data were processed

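Raw counts per gene were deposited. Per the file headers, featureCounts 1.6.4 counted paired-end fragments over exons, summed by gene name, on GENCODE M23 of mm10. Strand was ignored, and reads on several genes or, where flagged, at several places went uncounted. The submitters' processing notes also name edgeR. The aligner is not given in the sources used here.

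Positions and unshared exon bases came from GENCODE M21 (GRCm38, the assembly of mm10), whose exon lengths matched the deposited length of all 57 members. Genes were filtered with filterByExpr (16639 of 55228 kept), scaled by TMM, and compared, Trim28 KO over WT, by the robust quasi-likelihood F-test of edgeR 4.0.16 (with limma 3.58.1 in R 4.3.3) without covariate, on 2 libraries per genotype. P-values were adjusted by Benjamini-Hochberg over all genes tested and called under 0.05. The SE is the size of the log2 fold change over the square root of F. Steps were tested on simulated data. Alternatives were RLE factors, library size alone, no filter, a stricter filter, DESeq2 1.42.0, a replicate block, deposited lengths and leaving out each library. Sums without Pcdhb22 or Pcdhgc3 were chosen after seeing the data.

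Members and lists were chosen with earlier results of these data known. Any tested member could be named, as could up to 4 genes by p-value of each related list and of the neighbours, and the 2 highest of each marker list. Exceptions are stated where they occur.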

Additional observations from a re-analysis of the deposited data

How the results depend on the processing

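The counts of 10 rises and 4 falls stayed within 1.5 times under RLE factors, library size alone, no filter and the replicate block. Low counts limit the falls most. With the stricter filter of 2 CPM in 2 libraries, 1 member fell, 0 of them in beta, and 0 alpha genes rose, because those genes were no longer tested. DESeq2 gave 1 fall, in beta, with 0 in gamma and 0 rises in alpha, and the cause was not tested. When any 1 library was left out, the lone library of a genotype being assumed to vary like the others, rises numbered 6 to 10 and falls 0 to 2, with 0 to 1 rises in alpha, 0 to 2 falls in beta, and 5 to 8 rises and 0 to 1 falls in gamma. Over the related lists, 8 rises became 3 to 7 and 10 falls became 5 to 12. Summed log2 ratios were 0.29 for beta and -0.39 without Pcdhb22, and 0.63 for gamma and 1.02 without Pcdhgc3. With deposited lengths, the median gamma member was at 0.633 CPM per kb in Trim28 KO and 0.390 in WT. The replicate number is shared by the labels only, which do not say whether it marks pairs. Over all genes tested, the difference of replicate 1 minus 2 had a correlation of -0.09 between genotypes. This single value cannot show whether the libraries were paired. With the replicate block 10 members rose and 3 fell, Pcdhb10 having an adjusted p of 0.0501. Uncalled members whose log2 fold change took both signs without 1 library were Pcdhb3 (-0.040 to 0.47), Pcdhb5 (-0.16 to 0.84), Pcdhb7 (-0.62 to 0.028), Pcdhb13 (-1.11 to 0.39), Pcdhb15 (-0.77 to 0.47), Pcdhb21 (-0.25 to 0.0028), Pcdhga5 (-0.15 to 0.62), Pcdhga6 (-0.87 to 0.16), Pcdhgb6 (-0.20 to 0.43) and Pcdhga12 (-0.11 to 0.34).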
